A study of Mus musculus with 31 samples.

Results

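The effect of dBRD9, a small molecule that makes cells degrade the protein BRD9, was measured in mouse macrophages stimulated with lipopolysaccharide (LPS). The comparison rests on 6 of the 31 RNA sequencing libraries, 3 from cells given dBRD9 and LPS and 3 from cells given LPS alone, chosen by their labels and compared over all genes tested. The cells were grown from bone marrow of male C57BL/6J mice aged 6 to 12 weeks, in medium conditioned by L-929 fibroblasts. Both groups received LPS, a component of the wall of Gram-negative bacteria, at 100 ng/ml for the last 3 h. The dBRD9 + LPS group had also received dBRD9 at 250 nM overnight. The same experiment held 5 further groups of 3, namely vehicle, LPS with Dex or iBRD9, and LPS with Dex plus either BRD9 compound. Dex is dexamethasone, a synthetic glucocorticoid, used at 1 µM, and iBRD9 is an inhibitor of the BRD9 bromodomain. A second experiment of 10 libraries used interferon-gamma (IFNγ) with LPS, in 5 groups of 2.

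BRD9 is a bromodomain protein found only in the non-canonical form of the BAF complex, an assembly that uses ATP to move and evict nucleosomes. In macrophages, LPS is sensed by the receptor TLR4, which signals through the adaptor MyD88 to the transcription factor NF-κB and through the adaptor TRIF to interferon beta. Secreted interferon beta then acts on the same and neighbouring cells through a complex that includes STAT2 and IRF9, which switches on the interferon-stimulated genes. Genes of the early NF-κB wave and genes of the later interferon wave differ in how much they need chromatin remodelling.

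The 6 libraries held 20.5 to 29.7 M (mega) counts. On a principal component plot of these 6 the first component, with 46.8% of the variance, separated the groups (-22.11 to -18.44 for LPS, 18.35 to 24.68 for dBRD9 + LPS). Library pairs within a group differed by 2.13 to 4.63 times counting error (chi-square per degree of freedom). The 8 macrophage markers were all detected, with a summed level of 16100 to 16800 counts per M (CPM) with LPS and 13400 to 13900 with dBRD9 + LPS. The markers of neutrophils summed to at most 34.6 CPM and those of dendritic, B, T, NK, mast and erythroid cells to at most 9.13 CPM. Mitochondrial transcripts made up 1.16% to 1.18% of counts with LPS and 1.12% to 1.15% with dBRD9 + LPS, and 4 genes that collect ribosomal RNA reads 0.0652% to 0.0753% and 0.0775% to 0.0805%. The groups did not overlap in these shares or in the summed macrophage markers, and the part of these in the results was not tested. Levels in bulk RNA cannot tell fewer expressing cells from less RNA per cell. Whether replicates came from different mice or cultures is not in the labels, so p-values measure only how these samples vary, which may be technical.

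Of 12662 genes tested, 2103 (16.6%) were called: 841 (6.64%) were higher with dBRD9 + LPS than with LPS and 1262 (9.97%) were lower, at an adjusted p under 0.05 in edgeR's quasi-likelihood test. At 2-fold or more the balance tipped further, with 29 genes higher (0.229%) and 253 lower (2.0%). The median log2 fold change was 0.33 among the higher genes and -0.51 among the lower genes, against 0.0 over all genes. The share called lower grew with the level in the LPS group, from 1.69% of the 1898 genes under 1 CPM to 18.5% of the 2028 genes over 100 CPM. The share called higher was 1.9% and 8.88% in these ranges. The 3 libraries of each group did not overlap for 2547 genes (20.1%) that were lower and 2258 (17.8%) that were higher.

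**Figure D1:**
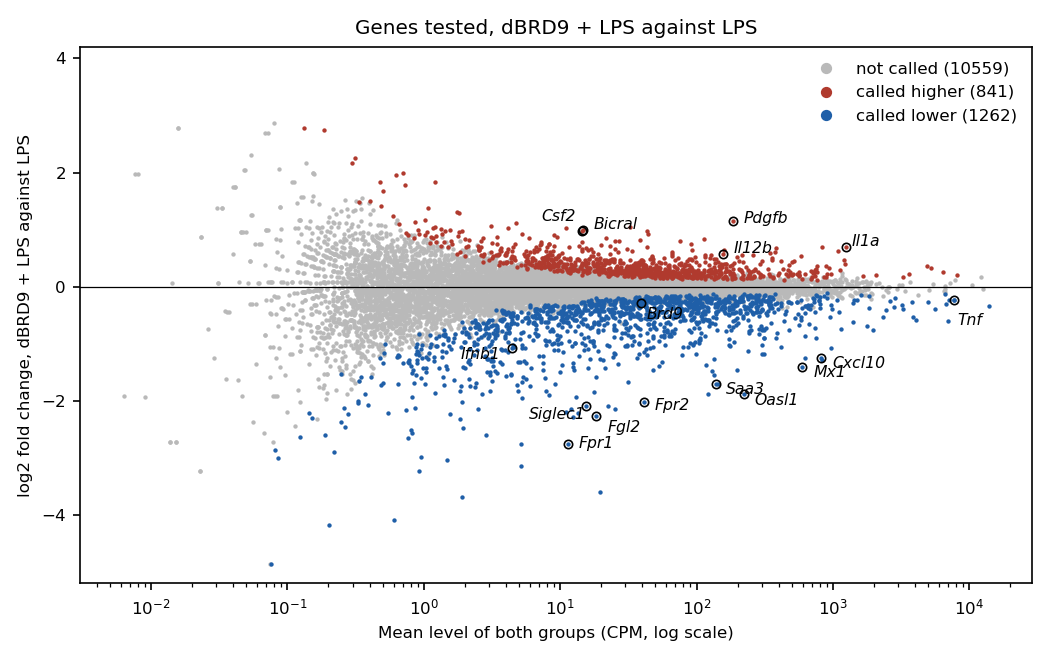
The log2 fold change of dBRD9 + LPS against LPS (vertical axis) is plotted against the mean level of both groups in CPM (horizontal axis, log scale) for every gene tested, with called genes in colour and some genes named. The 1262 lower genes reach further from 0 than the 841 higher genes, and Fpr1 lies at -2.75.

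The number of calls moved with the libraries fitted, which all share one estimate of the spread, and with the scaling; the cause of these moves was not tested. Without the first Dex + LPS library, which belongs to neither group compared, 1447 genes were higher and 1673 lower. When only the 6 libraries were fitted, 1470 were higher (12.6%) and 1835 lower (15.7%). The balance of directions turned with the scaling, since with library totals alone 1402 were higher and 1039 lower, and with an offset for transcript length 1633 and 1214. Counts deviated from the group mean with transcript length in the dBRD9 + LPS libraries (Spearman rho -0.24, 0.295 and -0.0463 across genes), more than with LPS (0.0217, -0.084 and 0.0611).

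Brd9 itself, which encodes the target (chromosome 13, 73937811 to 73960895, mm10), measured 45.2, 44.7 and 38.9 CPM with LPS and 34.2, 36.8 and 35.3 CPM with dBRD9 + LPS. All 3 degrader libraries were below all 3 LPS libraries (log2 fold change -0.28, SE 0.0617, adjusted p 0.00217). The compound acts on the protein, so the transcript does not check the degradation. Of 25 BAF subunit genes tested, 3 rose and 2 fell, with a median of 0.02, against 6.64% and 9.97% of all genes. With library totals alone the BAF counts were 5 and 1. All later list counts of dBRD9 + LPS against LPS stand beside the same shares. When only the 6 libraries were fitted, the shares were 12.6% higher and 15.7% lower. Bicral, which encodes a scaffold of the BRD9-containing complex, measured 10.3, 9.76 and 9.33 CPM with LPS and 18.8, 20.1 and 19.7 CPM with dBRD9 + LPS, with no overlap (log2 fold change 0.99, SE 0.0969, adjusted p 9.36e-08). Its paralog Bicra gave 12.0 CPM ± 0.941 (SD, n = 3) and 12.2 ± 2.37 and was not called (0.02, adjusted p 0.941). Smarca4, the ATPase of the complex, was also not called (-0.03). Arid2, of the polybromo-containing form, fell by 0.37 on the log2 scale (adjusted p 0.043). That call ended with library totals alone (adjusted p 0.0666) and when any of 5 of the 6 libraries was left out.

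Some of the largest falls were in receptors for chemoattractants. Fpr1, which encodes the receptor for bacterial formyl peptides, fell from 21.9, 20.1 and 17.6 CPM to 3.35, 2.56 and 2.95 CPM (-2.75, SE 0.178, adjusted p 1.97e-10). Its neighbour Fpr2, a formyl peptide receptor that also binds lipoxin and serum amyloid A, fell from 69.5, 65.1 and 63.6 CPM to 17.2, 15.7 and 15.7 CPM (-2.03, SE 0.108, adjusted p 1.13e-11). Ccr3, the eotaxin receptor, fell from 20.8, 23.8 and 22.3 CPM to 4.89, 4.2 and 5.31 CPM (-2.22, SE 0.142). None of these 3 genes had overlapping groups.

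Among all 42 receptors of the list tested, 7 rose and 14 fell, against 6.64% and 9.97% of all genes. Their median log2 fold change was -0.13. Of 9 chemokine receptors 5 fell, among them Ccr2, Ccr3, Cx3cr1 and Ccrl2, and Ccr1, a receptor for CCL3 and CCL5, was not called: 33.3 CPM ± 1.77 with LPS and 31.2 ± 1.73 with dBRD9 + LPS (-0.09, adjusted p 0.492). Ccr2, the receptor for CCL2, had few reads, at 3.46, 3.35 and 3.77 CPM with LPS and 0.479, 0.0913 and 0.242 CPM with dBRD9 + LPS (-3.69, SE 0.291, adjusted p 1.18e-08). Cx3cr1, the fractalkine receptor, fell from 14.4 to 6.56 CPM. C3ar1, the receptor for the complement fragment C3a, rose from 475 CPM ± 20.5 to 687 ± 20.6 (SD, n = 3; 0.53, adjusted p 1.3e-08), and C5ar1, for C5a, was not called at 603 and 609 CPM. Among lipid and nucleotide receptors, Cysltr1, for cysteinyl leukotrienes, fell by 1.04 on the log2 scale and P2ry13, for ADP, by 1.6, while Adora2b, for adenosine, rose by 0.44 and Gpr84, for medium-chain fatty acids, by 0.38.

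Fpr1 and Fpr2 are neighbours on chromosome 17, so the tested genes with starts within 250 kb of Fpr1 were listed, a window chosen after the values had been seen. It held 6 tested genes, Fpr1 and Fpr2 included, of which 4 fell. Has1, which encodes a hyaluronan synthase and starts 28.7 kb before Fpr1, fell from 7.42 CPM ± 0.0505 to 2.25 ± 0.246 (-1.72, SE 0.177, adjusted p 4.53e-07). Spaca6, 56.8 kb before it, fell as well (-0.74, SE 0.171, adjusted p 0.00348). The other 2 were not called: the vomeronasal receptor gene Vmn2r90, 180.2 kb before Fpr1, at 1.37 CPM ± 0.337 with LPS and 2.34 ± 0.448 with dBRD9 + LPS (0.80, SE 0.273, adjusted p 0.0513), and the pseudogene Gm7535, 28.9 kb after it, at 0.513 ± 0.0719 and 0.161 ± 0.201 (-1.65, SE 0.669, adjusted p 0.104).

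**Figure D2:**
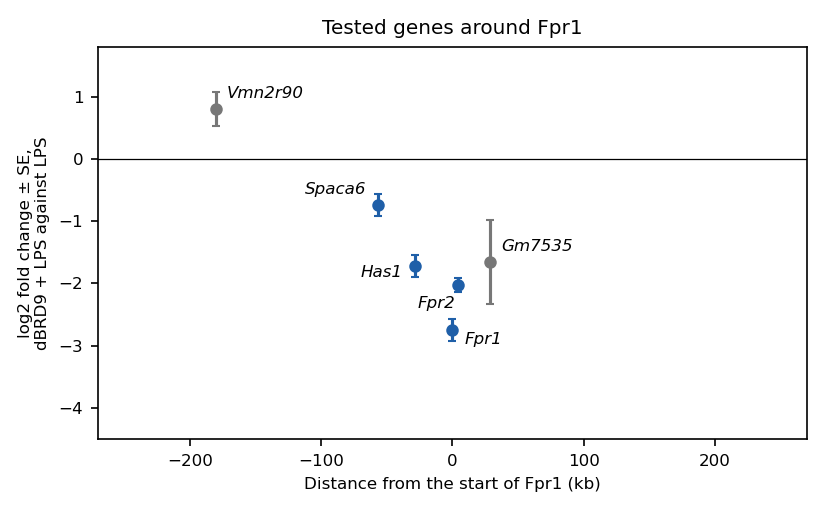
The log2 fold change with its SE (vertical axis) is plotted against the distance of each gene's start from that of Fpr1 in kb (horizontal axis), positive towards higher coordinates, blue for genes called lower and grey for genes not called. Has1, Fpr1 and Fpr2 lie between -2.75 and -1.72.

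In the path from LPS to interferon, 4 of 10 genes for the LPS receptor and its adaptors rose and none fell. These were Ly96, which encodes the MD-2 subunit that holds LPS (0.38), Ticam1 and Ticam2, which encode TRIF and its bridging adaptor (0.30 and 0.27), and Traf3 (0.37). Tlr4 and Myd88 were not called, each at -0.03. Ifnb1, the interferon beta gene, measured 6.37, 6.07 and 5.61 CPM with LPS and 2.78, 2.42 and 3.33 CPM with dBRD9 + LPS, with no overlap (-1.08, SE 0.221, adjusted p 0.00131). The receptor gene Ifnar1 was not called (0.04), and Ifnar2 fell by 0.17 on the log2 scale.

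Of 4 signal transducers of the interferon receptor, 3 fell and none rose. Stat2 fell from 376, 368 and 396 CPM to 230, 228 and 218 CPM (-0.76, SE 0.0758, adjusted p 1.4e-07). Irf9, its DNA-binding partner, was not called at 110 and 98.7 CPM (-0.16), although all 4 transducers were called lower when only the 6 libraries were fitted. Irf7, which encodes the factor that amplifies interferon production, fell from 183, 167 and 184 CPM to 117, 101 and 97.3 CPM (-0.76, SE 0.117). Of the feedback inhibitors, Usp18, which removes ISG15 and blocks the receptor, fell by 0.94 on the log2 scale and Socs1 by 0.49, whereas Socs3 rose by 0.28. In all, 6 of these 28 pathway genes rose and 8 fell, with a median of -0.01.

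Of 72 type I interferon-stimulated genes, 56 fell and none rose, and the median was -0.45, against 9.97% called lower and a median of 0.0 over all genes. The list was written with results of these data known. Falls were spread over its classes. Of 8 genes of the OAS family, some of which make the activator of RNase L, 7 fell. So did 6 of 8 genes of the IFIT and IFITM families and 5 of 7 Schlafens. In the group of Mx proteins, viperin and its partner 4 of 4 fell. Oasl1 measured 347, 342 and 359 CPM with LPS and 89.2, 87.4 and 107 CPM with dBRD9 + LPS (-1.89, SE 0.106, adjusted p 1.84e-11). Mx1, a gene of the Mx GTPase family, measured 871, 804 and 928 CPM and then 358, 330 and 297 CPM (-1.40, SE 0.133, adjusted p 6.09e-08). Both had wide gaps between the groups. Isg15 was not called at 572, 595 and 583 CPM against 509, 504 and 530 CPM (-0.18, adjusted p 0.195), nor was Slfn2 (0.04). When only the 6 libraries were fitted, 67 of the 72 genes fell, Isg15 among them, and none rose, against 15.7% of all genes lower.

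Genes for sensors of foreign nucleic acid fell in 13 of 13 cases, by 0.24 to 0.81 on the log2 scale. They included Ddx58 and Ifih1, which encode the RNA sensors RIG-I and MDA5 (-0.59 and -0.65), Cgas, for the DNA sensor cGAS (35.9 to 22.8 CPM, -0.65), and Zbp1, for a sensor of Z-form nucleic acid (86.4 to 49.3 CPM, -0.81). Of their adaptors, Tmem173, which encodes STING, rose from 23.5 to 31.5 CPM (0.42, SE 0.0675, adjusted p 7.67e-05), and Mavs was not called (0.08).

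Interferon-inducible GTPases attack the vacuoles of intracellular pathogens. All 8 genes tested in the group of immunity-related GTPases (IRG) fell, with a median of -1.36. That group also counts Gvin1 (-1.17), which belongs to a separate family of large GTPases. Of 7 guanylate-binding proteins (GBP) 3 fell, with a median of -0.10, and 1 GBP gene was called higher when only the 6 libraries were fitted. Iigp1 fell from 20, 17.2 and 21.9 CPM to 5.27, 3.38 and 4.69 CPM (-2.15, SE 0.15, adjusted p 6.39e-10). Tgtp2 fell from 36.1, 32.5 and 40.1 CPM to 9.1, 8.99 and 7.39 CPM (-2.09, SE 0.166), although reads may be split with its near-identical copy Tgtp1. Irgm1 fell from 403 to 199 CPM (-1.02). Gbp2 stayed uncalled at 1030 and 958 CPM (-0.10) and Gbp7 at 310 and 328 CPM (0.08). The difference between the families was not tested, and 3 further GBP genes, Gbp5, Gbp6 and Gbp10, were not analysed here.

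Interferon-stimulated genes are known to carry the interferon-stimulated response element (ISRE) bound by the factors that interferon activates, and early LPS genes the κB site of NF-κB. Promoter windows from RefSeq (GRCm38.p6, 250 bases before to 50 after the start) were searched on both strands. The ISRE was taken as GAAA, any 2 bases and GAAA. The κB site was taken as GGGA, any 1 base and TTTCC, or GGGA, any 2 bases and TTCC; these forms overlap and were counted once. A window was matched to 9380 (81.0%) of the 11581 protein-coding genes tested. The ISRE letters were in a window of 24 of 60 interferon-stimulated genes (40%), in 4.04% of all genes tested, in 2.98% of genes called higher and in 3.44% of all 32851 windows. The κB letters were in 3 of the 60 and in 1.76% of all genes tested. The AP-1 site TGANTCA and a PU.1 site were also searched, and were in 10 and 5 of the 60, against 6.47% and 4.01% of all genes tested. For genes called lower the check is void, because 79.9% had a window, under the 80% required. The 250 bases before the start of 5 genes that fell are shown, since they place these letters in genes of both kinds. Capitals mark matches to the ISRE or κB letters, and sequences read 5′ to 3′ on the gene's strand.
Cxcl10 (chr5:92348890-92349139, minus strand): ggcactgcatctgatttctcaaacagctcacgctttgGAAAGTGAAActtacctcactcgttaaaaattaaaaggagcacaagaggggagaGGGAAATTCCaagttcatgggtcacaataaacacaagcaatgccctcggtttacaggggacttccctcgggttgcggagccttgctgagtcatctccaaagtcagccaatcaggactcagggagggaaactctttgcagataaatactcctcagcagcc
Tgtp2 (chr11:49064213-49064462, minus strand): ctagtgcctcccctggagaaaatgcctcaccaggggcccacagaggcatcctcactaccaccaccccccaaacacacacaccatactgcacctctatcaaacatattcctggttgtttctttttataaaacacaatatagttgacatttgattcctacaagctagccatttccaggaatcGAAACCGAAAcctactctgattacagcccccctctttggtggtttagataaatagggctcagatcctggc
Saa3 (chr7:46715677-46715926, minus strand): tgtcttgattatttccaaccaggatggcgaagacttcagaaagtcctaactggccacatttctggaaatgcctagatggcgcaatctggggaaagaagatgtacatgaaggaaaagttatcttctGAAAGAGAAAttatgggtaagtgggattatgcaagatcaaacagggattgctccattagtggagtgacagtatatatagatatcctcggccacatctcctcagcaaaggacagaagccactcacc
Ifnb1 (chr4:88522795-88523044, minus strand): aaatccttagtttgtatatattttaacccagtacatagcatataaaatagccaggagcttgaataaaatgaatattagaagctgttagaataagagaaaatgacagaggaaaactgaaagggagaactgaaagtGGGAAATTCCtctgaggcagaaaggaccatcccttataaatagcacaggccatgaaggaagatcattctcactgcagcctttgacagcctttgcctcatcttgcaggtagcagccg
Il6 (chr5:30012864-30013113, plus strand): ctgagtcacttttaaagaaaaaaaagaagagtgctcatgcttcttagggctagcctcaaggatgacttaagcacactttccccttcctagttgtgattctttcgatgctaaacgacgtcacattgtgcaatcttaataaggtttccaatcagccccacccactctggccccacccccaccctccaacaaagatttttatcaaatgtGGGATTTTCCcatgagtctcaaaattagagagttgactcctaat
In Cxcl10 the ISRE letters begin 213 bases before the start and the κB letters 159 bases before it. Tgtp2 (70 bases) and Saa3 (125 bases) hold ISRE letters and no κB letters, and Ifnb1 (116 bases) and Il6 (44 bases) κB letters and no ISRE letters. A match describes the letters and does not show that a factor binds.

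Cytokines and chemokines moved in both directions, with 8 of 45 higher and 22 lower and a median of -0.26. Il6 fell from 416, 395 and 407 CPM to 212, 206 and 233 CPM (-0.90, SE 0.0793, adjusted p 4.95e-08). Il1rn, which encodes the interleukin-1 receptor antagonist, fell from 331, 335 and 322 CPM to 159, 136 and 158 CPM (-1.13, SE 0.108), while Il1a, for an agonist of that receptor, rose from 941, 965 and 947 CPM to 1480, 1480 and 1640 CPM (0.69, SE 0.0864). Antagonist and agonist thus moved in opposite directions. Il10, an anti-inflammatory cytokine, fell from 11.2, 8.74 and 11.2 CPM to 3.88, 4.93 and 4.54 CPM (-1.21, SE 0.206, adjusted p 0.000156). Il12b, which encodes the p40 subunit of IL-12 and IL-23, rose from 131, 122 and 126 CPM to 170, 189 and 205 CPM (0.57, SE 0.0694), and their partner subunits Il12a and Il23a were not called, each at -0.25.

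Of 11 CXC and CX3C chemokines 7 fell and 2 rose. Cxcl3, which attracts neutrophils, fell from 1180, 1180 and 1140 CPM to 470, 473 and 500 CPM (-1.28, SE 0.0667, adjusted p 9.86e-12). Cxcl9 and Cxcl10, ligands of CXCR3, fell by 1.29 and 1.25 on the log2 scale, Cxcl10 from 1190, 1110 and 1190 CPM to 494, 454 and 518 CPM. Of 3 CC chemokines abundant after LPS, Ccl3 (0.05) and Ccl5 (-0.11) were not called, and Ccl4 fell by 0.26 on the log2 scale. The CCR4 ligands rose, Ccl22 from 616, 647 and 634 CPM to 1020, 992 and 1080 CPM (0.70, SE 0.101) and Ccl17 from 26.6, 29.4 and 31.1 CPM to 52.4, 50.5 and 68 CPM (0.97, SE 0.148). Ccl2, for monocytes, was not called (0.14, adjusted p 0.245), although it was with the length offset (0.23, adjusted p 0.00632) and when only the 6 libraries were fitted (adjusted p 0.00779).

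The NF-κB list did not lean to either side, with 7 of 36 higher, 7 lower and a median of 0. When only the 6 libraries were fitted, these counts were 10 and 14. Of the 5 subunits 1 was called, or 3 when only the 6 libraries were fitted. This was Relb, of the alternative pathway, which rose from 204, 205 and 204 CPM to 258, 255 and 264 CPM (0.34, SE 0.0475). The inhibitors Nfkbia and Tnfaip3 were not called, at -0.01 and -0.15. The targets spread widely, from Saa3, an acute-phase protein, to Bcl2a1b, a survival factor. Saa3 fell from 218, 213 and 204 CPM to 69.9, 58.6 and 65.7 CPM (-1.71, SE 0.0781, adjusted p 3.5e-12), and Vcam1, an adhesion molecule, from 223 to 132 CPM (-0.75). Bcl2a1b, whose reads may be split with near-identical copies, rose from 6.15 to 10.3 CPM, a call that ended without the first dBRD9 + LPS library (0.59, adjusted p 0.0769). Tnf, at 8430 and 7130 CPM, fell by 0.24 on the log2 scale.

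Immediate early and AP-1 factors gave 2 higher and 6 lower of 28, or 6 and 9 when only the 6 libraries were fitted. Cebpd, a partner of NF-κB at acute-phase genes, fell from 209, 208 and 204 CPM to 127, 114 and 121 CPM (-0.78, SE 0.0831). Batf2, an interferon-induced factor, fell from 39.9 to 23.5 CPM (-0.76), and Ier3 rose from 111 to 156 CPM (0.49). Of 25 phosphatases and feedback inhibitors of signalling 6 rose and 6 fell, against 6.64% and 9.97% of all genes. Dusp2 and Dusp4, phosphatases of nuclear MAP kinases, fell by 0.56 and 0.50 on the log2 scale, while Dusp5, a phosphatase of ERK, rose by 0.49. Zfp36, which encodes the mRNA-destabilising protein tristetraprolin, rose from 855, 855 and 796 CPM to 1070, 1060 and 1030 CPM (0.33, SE 0.0659).

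Growth factor genes included the highest log2 fold change of the ranked genes. Pdgfb, the B chain of platelet-derived growth factor, measured 117, 120 and 110 CPM with LPS and 274, 239 and 257 CPM with dBRD9 + LPS (1.15, SE 0.076, adjusted p 2.56e-10). The gene of its receptor, Pdgfrb, moved the other way, from 32.9, 30.2 and 29.7 CPM to 11.8, 10.7 and 12 CPM (-1.43, SE 0.109, adjusted p 2.4e-09); it was singled out after its values had been seen. Pdgfrb is a marker of stromal cells, but of the other 8 stromal markers none was tested, and Col1a2 and Col3a1 had no count in these 6 libraries. Csf2, which encodes GM-CSF, rose from 9.87, 11.2 and 8.09 CPM to 18.1, 16.9 and 22.5 CPM (0.97, SE 0.126), whereas Csf3, for G-CSF, fell from 6.46 to 2.26 CPM (-1.52, SE 0.155). Among the 20 ligands tested 3 rose and 8 fell, with Edn1, which encodes endothelin, falling from 235 to 115 CPM and Igf1 from 363 to 216 CPM. Csf1r, the receptor for the growth factor CSF1, was not called at 1790 and 1850 CPM.

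Of 10 genes of MHC class II 6 fell and none rose, with a median of -0.53. H2-Eb1 fell from 77.8, 77.6 and 76.6 CPM to 29.9, 26.2 and 32 CPM (-1.40, SE 0.0895, adjusted p 1.83e-10), and H2-Ab1 from 167, 170 and 169 CPM to 67.6, 63.9 and 63.7 CPM (-1.37, SE 0.1). Ciita, the master activator of class II, fell from 32.2 to 17.4 CPM (-0.89), while Cd74, the invariant chain, was not called at 1050 and 923 CPM. In class I, 3 of 21 rose and 6 fell. The heavy chains H2-K1 and H2-D1 rose by 0.20 and 0.16 on the log2 scale, and the peptide transporter Tap1 and the immunoproteasome subunit Psmb9 fell by 0.48 and 0.52. Cd83, a marker of activation, rose from 297 to 452 CPM (0.61), and Cd200, an inhibitory ligand, fell from 35.2 to 15.6 CPM (-1.18).

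Scavenger receptors fell in 6 of 12 cases and rose in 1. Siglec1, which encodes the sialic acid receptor CD169, fell from 27.6, 23.9 and 24 CPM to 6.95, 6.16 and 4.59 CPM (-2.09, SE 0.204, adjusted p 9.36e-08). Stab1, a receptor for modified lipoproteins and SPARC, fell from 429, 410 and 422 CPM to 174, 191 and 190 CPM (-1.19, SE 0.0786), and Msr1, scavenger receptor A, from 601 to 354 CPM (-0.76). Of 8 genes that help clear dying cells 5 rose and 1 fell, or 2 fell when only the 6 libraries were fitted. The complement genes C1qa, C1qb and C1qc rose by 0.44, 0.30 and 0.20 on the log2 scale and the bridging ligand Gas6 by 0.26, while the receptor Mertk fell from 11.7, 11.7 and 12.5 CPM to 8.48, 7.12 and 7.1 CPM (-0.66, SE 0.114).

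Markers of macrophage identity gave 2 of 30 higher and 13 lower, or 4 and 18 when only the 6 libraries were fitted and 4 and 12 with library totals alone. Lyz2, lysozyme, fell from 8640, 8510 and 8250 CPM to 5650, 5420 and 5690 CPM (-0.60, SE 0.0532), and is among the summed macrophage markers given above. Adgre1, the F4/80 antigen, and Cd68 were not called (-0.15 and 0.23), nor was Spi1, the factor PU.1 (0.14). The Fc receptor genes Fcgr1 and Fcgr4 fell by 0.80 and 0.96 on the log2 scale. Bhlhe40, a repressor of Il10, rose from 19.9, 20.9 and 18 CPM to 34.7, 30.4 and 37.4 CPM (0.80, SE 0.0945).

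**Figure D3:**
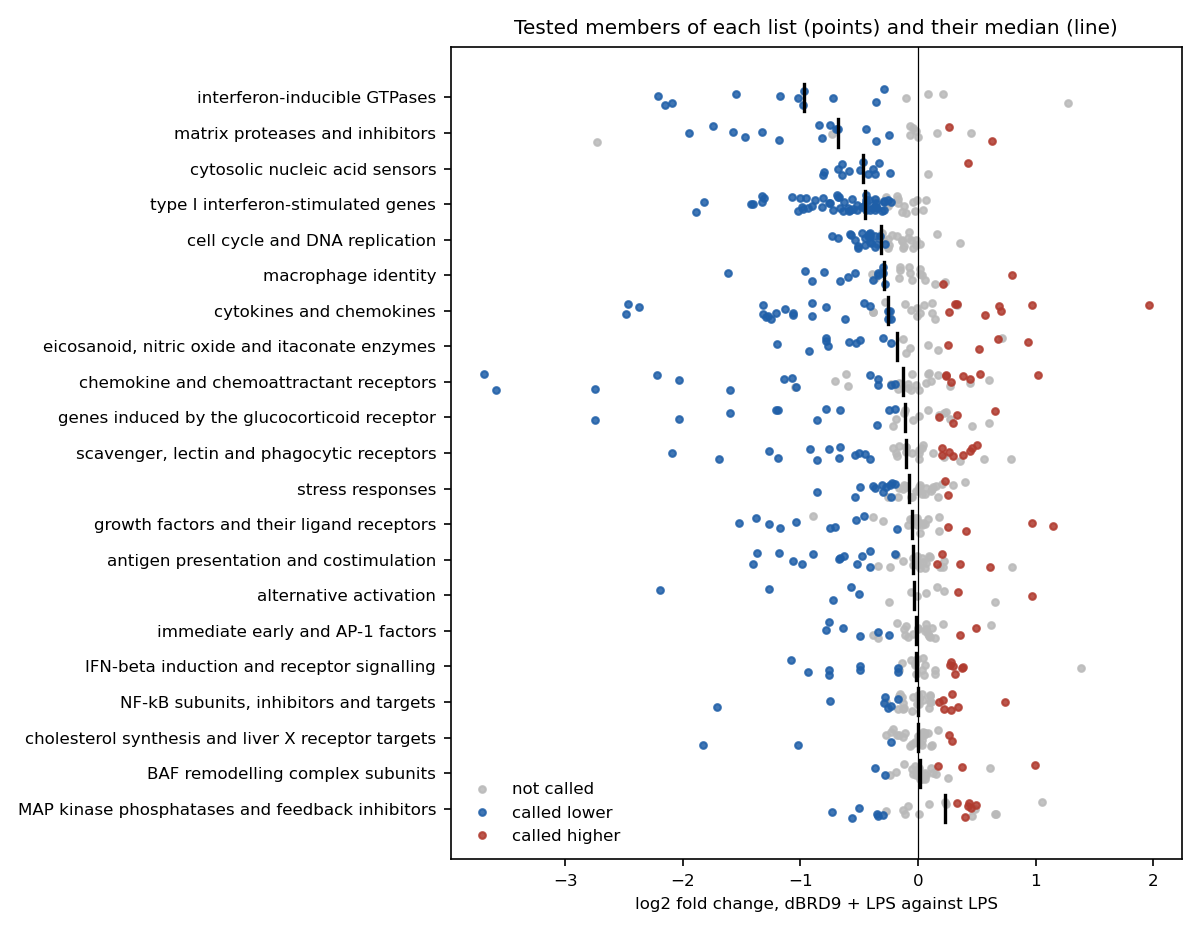
Each point is the log2 fold change of a tested member of a list (horizontal axis), coloured where called, and each black line is the median of that list (lists on the vertical axis, sorted by median). The interferon-inducible GTPases have the lowest median (-0.97), followed by matrix proteases and inhibitors (-0.68), and most lists hold members on both sides of 0.

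Matrix proteases and their inhibitors fell in 14 of 25 cases and rose in 2, with a median of -0.68. Mmp14, the membrane-bound collagenase that activates other matrix proteases, fell from 314, 293 and 272 CPM to 110, 107 and 101 CPM (-1.47, SE 0.0784, adjusted p 1.13e-11). Mmp8 and Mmp13, also collagenases, fell by 1.74 and 0.44 on the log2 scale, and Mmp9 and Mmp12 were not called (-0.02 and -0.04). Plau, urokinase, fell from 213 to 131 CPM, whereas its receptor Plaur rose from 693 to 829 CPM. Of 10 inhibitors 7 fell, among them Serpinb9b (52.8 to 23.3 CPM) and Serpinb2, which inhibits urokinase (55.3 to 31.4 CPM). Adam8 rose from 869, 867 and 824 CPM to 1320, 1300 and 1330 CPM (0.63, SE 0.0457). Fn1, the matrix protein fibronectin, fell from 18.6, 17.2 and 18.9 CPM to 3.07, 4.56 and 4.3 CPM (-2.19, SE 0.142, adjusted p 1.97e-10).

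Enzymes of inflammatory mediators fell in 10 of 20 cases and rose in 4. Nos2, the inducible nitric oxide synthase, fell from 309, 309 and 303 CPM to 167, 181 and 190 CPM (-0.78, SE 0.09). Genes of arginine supply fell as well, with Slc7a2, an arginine transporter, going from 316 to 186 CPM and Ass1, which remakes arginine, from 76.4 to 44.4 CPM. Ptgs2, cyclooxygenase-2, fell from 4860 to 3230 CPM (-0.59), while the constitutive Ptgs1 rose from 3.59 to 6.86 CPM (0.93) and Hpgds, which makes prostaglandin D2, from 80.5 to 115 CPM (0.52). Pla2g7, which breaks down platelet-activating factor, fell from 110, 108 and 108 CPM to 47.2, 46.2 and 48.8 CPM (-1.20, SE 0.067).

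Of 29 genes of cholesterol synthesis and liver X receptor targets, 2 rose and 3 fell, against 6.64% and 9.97% of all genes. The counts of this list were 3 and 6 when only the 6 libraries were fitted (12.6% and 15.7% of all genes). With library totals alone they were 4 and 2. The 2 largest falls were Ch25h, which makes 25-hydroxycholesterol (14.5, 11 and 11.4 CPM against 4.41, 2.78 and 3.19 CPM; -1.83, SE 0.228), and Nr1h3, which encodes the liver X receptor alpha (41.5 to 20.5 CPM; -1.02, SE 0.082). Of 42 cell cycle genes 21 fell and none rose, 13 of them among the 21 of replication, such as Mcm7 (16.7, 14.1 and 16.5 CPM against 10.6, 9.54 and 11.5 CPM; -0.58). Mki67 was not called (0.16). Stress genes gave 2 higher and 12 lower of 38, or 7 and 16 when only the 6 libraries were fitted, and 6 of 8 NRF2 targets fell, among them Nqo1 (12.2 to 6.74 CPM; -0.86). Of 28 genes known to be induced by the glucocorticoid receptor, 4 rose and 11 fell without Dex. Besides Fpr1, Fpr2 and Stab1 these included Sgk1 (49.8 to 27.6 CPM; -0.86), and Errfi1 rose from 71.9 to 113 CPM (0.65).

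The 12 genes with the highest log2 fold changes ran from 0.83 to 1.15. Besides Pdgfb, Bicral, Csf2 and Ccl17 they included Cdk5r1, which encodes an activator of CDK5 and rose from 21.9, 23.1 and 19 CPM to 42.2, 45.8 and 44.3 CPM (1.04, SE 0.0915). Tlr9, the endosomal receptor for CpG DNA, rose from 7.05, 5.99 and 7.39 CPM to 12.2, 12.2 and 12.4 CPM (0.86, SE 0.148), and Ddx28, a mitochondrial RNA helicase, from 31.3, 32.1 and 28.3 CPM to 60.5, 55.3 and 58.2 CPM (0.92, SE 0.0751). The others were Cd300ld3, Siglecf, Fblim1, Kctd12 and Tor4a. At the low end stood also Fgl2, a secreted immunosuppressive fibrinogen-like protein (31.1, 31.1 and 29.5 CPM against 5.89, 6.71 and 6.33 CPM; -2.27, SE 0.146), and Mefv, which encodes the inflammasome protein pyrin (43.2, 38.7 and 41.4 CPM against 10.2, 8.35 and 9.42 CPM; -2.14, SE 0.108). Mamdc2 (-1.94) and Apol7c (-1.90) were also among the 12 lowest. The groups of all 24 do not overlap, which the rule required.

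**Figure D4:**
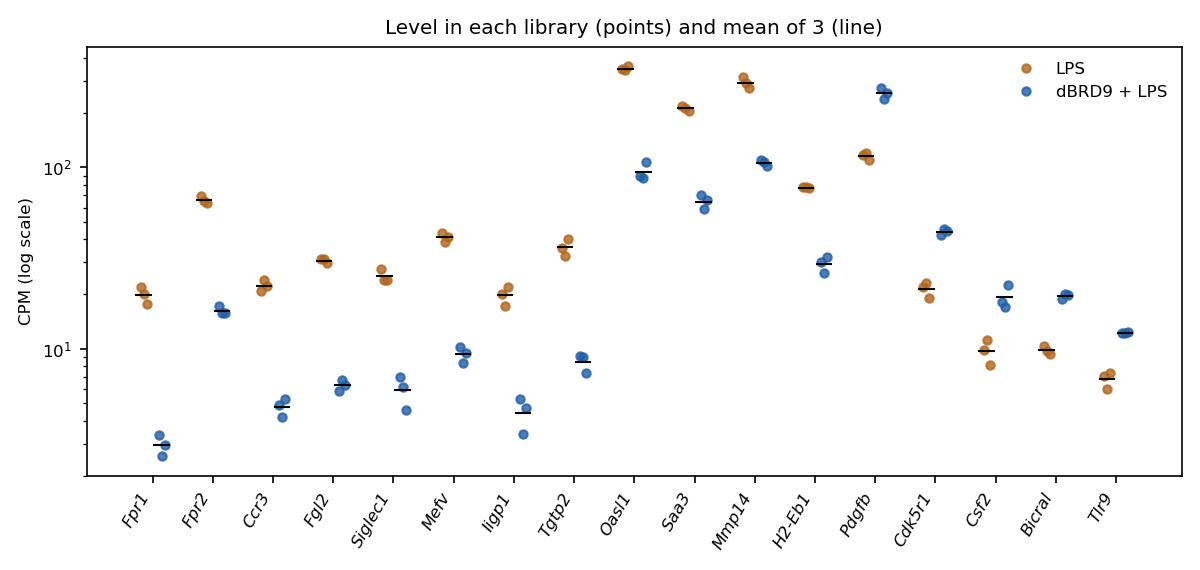
The level of 17 genes in CPM (vertical axis, log scale) is shown for each of the 3 LPS libraries and 3 dBRD9 + LPS libraries, with the mean as a line. Groups are separate for every gene shown, by the most for Fpr1 (19.9 and 2.95 CPM).

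At the threshold itself, Pygl (0.19) and Mphosph6 (-0.25), both with an adjusted p of 0.0498, were the last called among genes of at least 10 CPM. Plxnc1 (-0.23, adjusted p 0.0501) and Socs6 (0.20, adjusted p 0.0502) were the first not called.

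The same dose of dBRD9 was also given with Dex + LPS, in 6 libraries that the comparison above does not use. In Dex + dBRD9 + LPS against Dex + LPS, 824 genes were higher (6.51%) and 1175 lower (9.28%), again in edgeR. Of the 1262 genes lower without Dex, 610 (48.3%, or 51.9% of the 1175) were also lower with it and 11 were higher. Of the 841 higher without Dex, 294 (35%, or 35.7% of the 824) were also higher and 5 were lower. Across 12662 genes the log2 fold changes had a Pearson r of 0.421 (Spearman rho 0.397), given as a description, since genes share libraries and depth. Fpr1 (-3.08), Fpr2 (-2.09), Ccr3 (-2.48), Siglec1 (-2.39), Oasl1 (-1.87) and Mmp14 (-1.74) fell with Dex as well. Bicral (1.33), Pdgfb (1.01), Tlr9 (1.23) and Fblim1 (0.81) rose again, while Csf2 (0.49) and Siglecf (0.41) were not called and Ccl17 fell (-0.98). Csf2 and Siglecf had few reads with Dex. Their means were 0.344 and 0.958 CPM with Dex + LPS, and 0.48 and 1.31 CPM with Dex + dBRD9 + LPS. Of 29 genes at least 2-fold higher without Dex, 9 were higher with it, and of 253 at least 2-fold lower, 156 were lower. When the 2 groups with Dex were fitted alone, 142 genes were higher and 437 lower.

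The gene lists kept their direction in part. Of the 72 interferon-stimulated genes 27 fell and 3 rose with Dex (median -0.22). Of the 8 genes in the IRG group 7 fell, all but Gvin1, and of the 13 sensors 3 fell and 1 rose. Over all genes, 9.28% fell and 6.51% rose with Dex. Matrix proteases and inhibitors again gave 14 lower and 2 higher of 25, and MHC class II 6 lower of 10. Mitosis genes did not fall with Dex (0 lower and 1 higher of 21), while 13 of 21 replication genes did. Whether each list differed between the settings was not tested.

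In the second experiment dBRD9 was given with IFNγ + LPS, and 2 libraries were compared with 2 of IFNγ + LPS alone. There 109 of 13313 genes were higher (0.819%) and 134 lower (1.01%). Among 11945 genes tested in both experiments, 88 of 1219 lower genes (7.22%, or 71.5% of the 123 called lower with IFNγ) were lower in both, and 25 were higher with IFNγ. Of 825 higher genes 23 (2.79%, or 21.7% of 106) were higher in both and none was lower. Across the 11945 genes the log2 fold changes had a Pearson r of 0.108 (Spearman rho 0.0645), again given as a description. The 25 of opposite direction included Thbs1 (-1.27 and 0.79), Cxcl1 (-0.62 and 0.91), Rgs16 (-0.73 and 1.46), Mcm2 (-0.68 and 1.14) and Hmox1 (-0.24 and 0.81), named after their values had been seen. Formyl peptide receptors fell in both experiments, with Fpr1 at -2.32 (adjusted p 0.000253) and Fpr2 at -1.47 (adjusted p 6.11e-05) with IFNγ. Mmp14 (-1.28), Fgl2 (-1.14), Saa3 (-0.85), Iigp1 (-0.75), Oasl1 (-0.60) and Mefv (-0.58) also fell, and Bicral rose by 1.18 on the log2 scale. Pdgfb (0.35), Tlr9 (0.31) and Fblim1 (0.73) were not called. Of 22 genes at least 2-fold higher under LPS alone none was higher with IFNγ, and of 225 at least 2-fold lower, 41 were lower.

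Other genes with large falls under LPS alone were not called with IFNγ + LPS, namely Ccr3 (0.32), Fn1 (-0.20), Siglec1 (-0.25), Tgtp2 (-0.27), Cxcl10 (0.23), Stab1 (0.04) and H2-Eb1 (-0.13). Of the 72 interferon-stimulated genes 8 fell and 4 rose, against 1.01% and 0.819% of all genes tested there, with a median of 0.0. The experiments differ in IFNγ, depth (14.5 to 17.9 M counts in the second), number of libraries and vehicle levels, which cannot be told apart, and the difference between them was not tested.

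**Figure D5:**
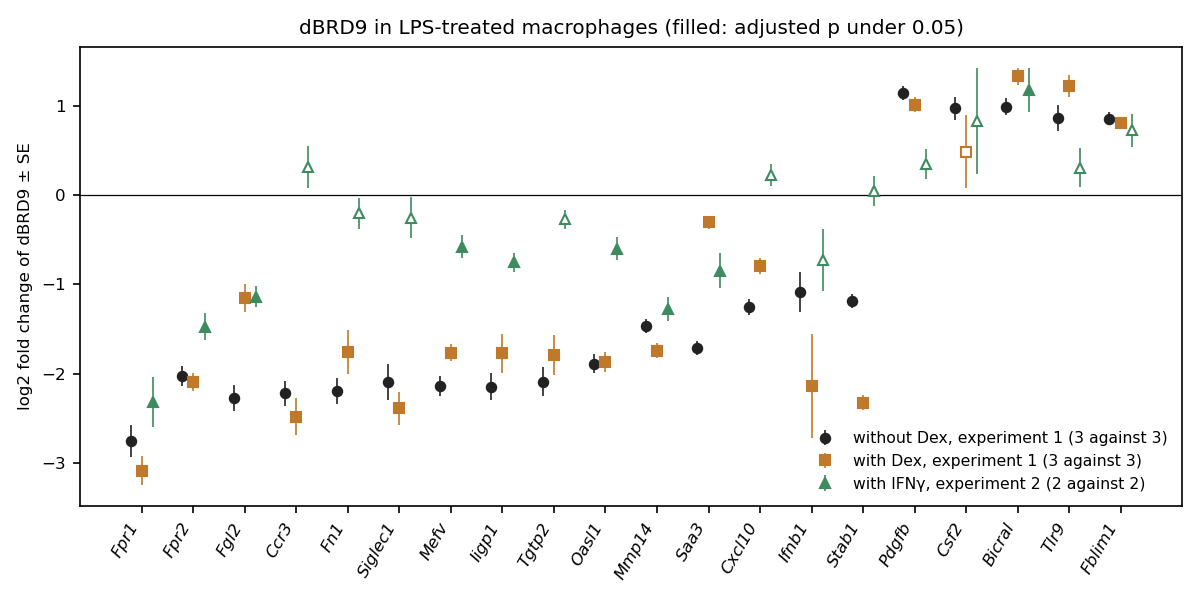
The log2 fold change of dBRD9 with its SE (vertical axis) is shown for 20 genes in 3 sets of libraries that share none, black circles without Dex, orange squares with Dex and green triangles with IFNγ in the second experiment, filled where the adjusted p is under 0.05. Fpr1 and Fpr2 are below -1.4 in all 3 sets, and Ccr3 is at -2.22 and -2.48 in the first experiment and 0.32 with IFNγ.

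Levels across the other conditions place these falls. Fpr1 was nearly silent with vehicle (0.135 CPM ± 0.118; SD, n = 3), stood at 19.9 ± 2.16 with LPS and 37.3 ± 4.73 with Dex + LPS, and was at 2.95 ± 0.399 with dBRD9 + LPS and 4.43 ± 0.506 with Dex + dBRD9 + LPS.

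The genes that dBRD9 lowered most were not all induced by LPS. Against vehicle, LPS raised Oasl1 by 8.89, Fpr2 by 8.47, Saa3 by 7.88, Mmp14 by 6.59, Iigp1 by 5.47 and Mefv by 4.30 on the log2 scale. It lowered Siglec1 (-1.06), Stab1 (-0.78) and Mamdc2 (-0.77), and Pdgfb was not called (0.02). In iBRD9 + LPS against LPS the same genes gave -4.63 for Fpr1, -4.49 for Siglec1, -3.60 for Oasl1, -2.33 for Mmp14, 1.34 for Pdgfb and 0.49 for Bicral. Nos2 (0.86) rose with iBRD9, as did Ccl2 (1.73), and Cdk5r1 (-1.50) fell. These contrasts share the LPS libraries with the one above, and the dose of iBRD9 in each sample was not given, so degrader and inhibitor were not compared.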

How the data were processed

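The deposited tables hold raw read counts for each Ensembl gene and library, and were used without change. Per the submitters' processing notes, the genome was mm10 and the tools named are fastp, STAR and DESeq2, with no roles. In the sources used here the counting step, the annotation and the strand setting are not stated. The first experiment's table holds 35275 identifiers, of which 97.77% matched a symbol. Each experiment was fitted alone in edgeR 4.0.16 (R 4.3.3): filterByExpr by group (minimum count 10, minimum total 15), TMM scaling, 1 coefficient per group over all 21 or 10 libraries, quasi-likelihood F tests, and Benjamini-Hochberg adjustment over all genes tested. All adjusted p-values of genes are edgeR's. The SE was taken as |log2 fold change|/√F. CPM use TMM-scaled totals. The common biological coefficient of variation was 6.79%, or 3.67% with the 6 libraries alone. On simulated data, 79% of 1.5-fold and 98% of 2-fold changes were recovered, and 4 of 181 calls were of unchanged genes (12074 genes). The simulation gave all groups the LPS level, changed equal numbers of genes up and down, and held no length trend. These rates therefore do not cover the skewed directions, group differences and length trends of the real data. Genes of at least 10 CPM with called, non-overlapping groups were ranked, and the 12 highest and 12 lowest are named, with up to 4 called members per list and fixed genes; clone names, predicted genes and pseudogenes were left out. Other list members are named as examples. The comparison's genes, lists and rules were chosen with earlier results of these data known. No list was given a test. Some results are not reported here.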

Additional observations from a re-analysis of the deposited data

Results flagged for a closer look

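For 21 named genes the effect of dBRD9 differed between cells without and with Dex, by a test of the difference itself (edgeR interaction term over all 21 libraries, adjusted over all genes); differences are on the log2 scale, with Dex minus without. Il12b gave 0.57 without Dex and -0.07 with it, a difference of -0.64 (adjusted p 0.00111), and Maff 0.36 and -0.07, a difference of -0.44 (adjusted p 0.0114). Ccl17 rose by 0.97 without Dex and fell by 0.98 with it, a difference of -1.96 (adjusted p 1.83e-05). Bhlhe40 gave 0.80 and -0.11, a difference of -0.91 (adjusted p 0.0136). For some of the 21 genes the level without dBRD9 also differed between the settings. Means with LPS and with Dex + LPS were 19.6 and 2.35 CPM for Bhlhe40, 307 and 26.2 for Nos2, and 211 and 4100 for Saa3. Stab1 fell in both settings, by 1.19 and 2.32, a difference of -1.14 (adjusted p 3.12e-06), as did Tgm2, with a difference of -0.48 (adjusted p 0.00645), and Serpinb2, with -0.61 (adjusted p 0.0361).

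The other 14 genes fell without Dex and had a higher log2 fold change with it. Many named genes were chosen for a large log2 fold change without Dex, a value that is subtracted in the difference. That choice favours differences of the opposite sign, so no conclusion is drawn from the split of directions. Saa3 gave -1.71 and -0.30, a difference of 1.41 (adjusted p 8.58e-08), and Fgl2 -2.27 and -1.15, a difference of 1.12 (adjusted p 0.00355). The nucleic acid sensor genes gave differences of 0.88 for Cgas (adjusted p 0.00939), 0.52 for Ifi204 (0.00199) and 0.59 for Ifi209 (0.0433). Among enzymes of nitric oxide and its supply, Ass1 differed by 0.79 (adjusted p 0.00111) and Nos2 by 0.50 (0.0443). Differences were 0.85 for Thbs1 (adjusted p 0.0052), 0.59 for Rgs16 (0.00238), 0.67 for H2-Ab1 (0.0193), 0.70 for Ms4a4c (0.044) and 0.46 for Cxcl10 (0.0463). The stress genes Slc7a11 and Osgin1 differed by 0.59 and 0.49 (adjusted p 0.0205 and 0.0482).

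Without the 2 libraries that stood apart, the first of Dex + LPS and of Dex + dBRD9 + LPS, a setting chosen after seeing the data, all 21 differences had the same sign and 20 were called; Bhlhe40 was not (-0.70, adjusted p 0.0571). Over all genes 429 such differences were called, or 947 without those libraries.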

How the results depend on the processing

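None of the 106 named genes changed direction in dBRD9 + LPS against LPS under the alternatives run, but the balance of calls turned from mostly lower to mostly higher with library totals alone, with a length offset, and with replicate block and length offset. For dBRD9 + LPS against LPS the count of higher genes moved from 841 to 1402 with library totals alone, 1633 with a length offset, 1692 with replicate block and length offset, 1470 with only the 2 groups fitted, 1634 without the 2 libraries that stood apart, and 1447 without the first Dex + LPS library alone (added after seeing the data). The lower count was 1039, 1214, 1233, 1835, 1831 and 1673 in the same order, against 1262. With DESeq2 the counts were 867 and 1330, with limma voom 826 and 1281, and with no filter on low counts 882 and 1215. Leaving out single libraries gave 600 to 1447 higher and 1016 to 1673 lower. Replicate numbers did not pair the samples of dBRD9 + LPS and LPS (correlation of same-numbered deviations -0.0062, -0.0365 and -0.0336). With the replicate block 859 were higher and 1282 lower. Of 106 named genes 102 were called, 94 of them under all 17 alternatives. With Dex, 824 higher became 1598 with library totals alone and 142 with only the 2 groups fitted, where 1175 lower became 437. Leaving out single libraries gave 575 to 1091 and 871 to 1467 there. Same-numbered deviations of the 2 groups with Dex had correlations of 0.31, 0.0866 and 0.13, and other pairs -0.219 to 0.0997. With the replicate block 897 were higher and 1225 lower with Dex. The difference between cells without and with Dex was fitted without a block. With IFNγ, 109 higher became 168 (DESeq2), 70 (library totals alone), 201 (no filter on low counts) and 71 (replicate block), and leaving out single libraries gave 15 to 40 higher and 45 to 54 lower, where the lone library is assumed to vary like the other groups. The causes of these moves were not tested.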
